A study of Mus musculus and Rattus norvegicus with 53 samples.

Results

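Schwann cells (SCs) of the nerve bridge (bSCs) were compared with those of the distal stump (dSCs) 10 days after the sciatic nerve was cut. The comparison rests on 6 of the 35 single-nerve mouse libraries and of the 53 samples of the series. They are the 3 bSC libraries of day 10, numbered 1, 2 and 3 in their titles, and the 3 dSC libraries of day 10, numbered 0, 1 and 3. All 24016 genes of the count tables were considered, and 7171 of them had enough reads to be tested.

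The mice were tdTom-SC reporters, in which a Cre recombinase active in the SC lineage switches on tdTomato from the Rosa26 locus. All 6 libraries carried the reporter, and both sexes were used at 6 to 8 weeks of age. The whole sciatic nerve was transected, the bridge and the distal stump were dissected apart, and tdTomato+ cells were sorted. Each library was made by Smart-seq2, which amplifies full-length cDNA from very little RNA, from 1 region of 1 nerve. The sort gate keeps every cell in which the Cre has once been active, so that descendants that no longer express it are kept as well.

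After a nerve is cut, SCs beyond the cut lose contact with axons, switch off their myelin genes and take on a repair state, in which they clear myelin debris, recruit macrophages and secrete growth factors. The distal stump keeps the tubes of basal lamina in which these cells lie. The bridge is new tissue between the stumps, made largely of fibroblasts, macrophages and new blood vessels, and SCs migrate into it as cords that guide regrowing axons. The comparison asks whether SCs at these sites differed at the latest time sampled.

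From 9595680 to 22426128 reads per library were assigned to genes. At least 1 read was found for 11983 to 13270 genes in bSCs and for 13819 to 14180 genes in dSCs, ranges that do not overlap although the deepest of the 6 libraries came from bSCs. Levels are given as CPM, the reads of a gene per 1e+06 reads of its library, the library sizes being scaled by TMM. Sox10, the transcription factor that defines the SC lineage, was between 62.1 and 109 CPM in all 6 libraries. The summed level of 20 listed genes of the SC lineage was 5076 to 7161 CPM in bSCs and 4200 to 6719 CPM in dSCs, and none of the 20 was at 0 in any library.

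bSC replicate 2 was closer to the dSC libraries than the other bSC libraries were. Pearson's correlation of log2 CPM across genes was 0.761 to 0.905 within dSCs, 0.645 to 0.745 within bSCs and 0.618 to 0.818 between the groups. bSC replicate 2 correlated more with dSC replicates 1 and 3 (0.818 and 0.800) than with either other bSC library (0.745 and 0.682). Among the pairs of bSC libraries, replicates 1 and 3 had the lowest correlation (0.645). bSC replicate 2 was also the only 1 of the 6 libraries with Xist and without Y-linked transcripts, so that its animal differed in sex from those of the other 5. Counts are therefore also given without it. The libraries come from single nerves, and bSC replicate 3 and dSC replicate 3 carry the same animal label. bSC replicate 1 carries the animal label of dSC replicate 0 but the title number of dSC replicate 1, so the groups were compared unpaired.

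At a Benjamini-Hochberg threshold of 0.05, edgeR's quasi-likelihood fit called 1 of the 7171 genes lower in bSCs (0.0139%) and 0 higher (0%). The gene was Lbp, and its difference was larger than 2.5-fold. At an unadjusted p under 0.05, 159 genes were lower in bSCs (2.22%) and 50 were higher (0.697%), and DESeq2 called 41 genes lower (0.583%) and 0 higher. The libraries of the 2 groups did not overlap for 474 genes that were lower in bSCs (6.61%) and for 675 that were higher (9.41%). The difference exceeded 2.5-fold for 275 lower genes (3.83%) and for 151 higher genes (2.11%).

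The number of calls depended on the libraries in the fit. Without bSC replicate 2, 42 genes were called, all of them lower in bSCs. Without dSC replicate 0, 9 genes were called, and without bSC replicate 1, bSC replicate 3 or dSC replicate 3, 0 were. With the 24 libraries of days 4 to 10 alone, 13 genes were called (0.181%), all lower, of which 9 were also called by DESeq2. With a replicate block by animal label 37 genes were called, and with a block by title number 91 were, of which 3 were higher in bSCs. Among the 159 genes lower in bSCs at an unadjusted p under 0.05, bSC replicate 2 was the highest of the bSC libraries for 100. The part of this library's sex or makeup in these counts was not tested.

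Lbp encodes lipopolysaccharide-binding protein, a secreted protein that hands bacterial lipopolysaccharide to its receptors. It lies on chromosome 2 (NCBIM37, chr2:158132229-158158588, plus strand). Lbp was at 13, 42.9 and 19.7 CPM in bSC replicates 1, 2 and 3 and at 165, 285 and 351 CPM in dSC replicates 0, 1 and 3. Every bSC library lay below every dSC library, with at least 279 reads in each. The means were 25.2 ± 15.7 CPM in bSCs and 267 ± 94.3 CPM in dSCs (SD, n = 3 each), and the log2 fold change was -3.41 ± 0.575 (SE), a 10.6-fold lower level (edgeR, adjusted p = 0.0127). Its adjusted p was 0.199 without bSC replicate 1, 0.352 without bSC replicate 3 and 0.0938 without dSC replicate 3, with log2 fold changes of -3.09 to -3.26.

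A further 11 genes had the smallest unadjusted p among the genes lower in bSCs whose libraries did not overlap and whose difference was past 2.5-fold, but none of them passed the adjusted threshold in the main test. Most encode secreted or matrix proteins. Dcn, the small leucine-rich proteoglycan decorin that binds collagen fibrils, was at 2174, 3745 and 2014 CPM in bSCs and at 4123, 13885 and 18010 CPM in dSCs (log2 fold change -2.18, adjusted p = 0.0931). Lum, its relative lumican, was at 672, 1330 and 707 CPM in bSCs and at 1787, 4804 and 9995 CPM in dSCs (log2 fold change -2.61, adjusted p = 0.192). For both, dSC replicate 0 was far below the other dSC libraries and still above every bSC library. Both had an adjusted p under 0.05 in DESeq2 and in the fit of 24 libraries.

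Mmp2, a gelatinase that cleaves basement membrane collagen, was at 177, 362 and 258 CPM in bSCs and at 899, 1532 and 1356 CPM in dSCs (log2 fold change -2.25, adjusted p = 0.351). Cpxm1, a secreted carboxypeptidase-like protein, was at 68.7, 61 and 32.6 CPM in bSCs and at 241, 817 and 916 CPM in dSCs (log2 fold change -3.60, adjusted p = 0.0931). Vtn, the adhesive serum protein vitronectin, was at 9.79, 10.6 and 1.69 CPM in bSCs and at 33.1, 146 and 97.2 CPM in dSCs (log2 fold change -3.65, adjusted p = 0.108). In these 3 genes every bSC library lay below the dSC range, and for Cpxm1 and Vtn bSC replicate 3 was the lowest.

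Steap3 and Steap4 encode metalloreductases, enzymes of 1 family that reduce iron and copper for uptake. Steap3 was at 75.0, 65.3 and 49.2 CPM in bSCs and at 169, 390 and 428 CPM in dSCs (log2 fold change -2.38, adjusted p = 0.0783). Steap4 was at 11.9, 136 and 5.64 CPM in bSCs and at 275, 687 and 822 CPM in dSCs (log2 fold change -3.54, adjusted p = 0.156), and bSC replicate 2 was the bSC library nearest to dSCs. Without that library, both passed, with log2 fold changes of -2.41 and -6.08 (edgeR, adjusted p = 0.0357 and 0.00077). Without bSC replicate 1, bSC replicate 3, dSC replicate 1 or dSC replicate 3, neither passed. The adjusted p in these edgeR fits was 0.27 to 0.715 for Steap3 and 0.524 to 0.747 for Steap4. Without dSC replicate 0, Steap3 passed and Steap4 did not (edgeR, adjusted p = 0.0145 and 0.0773).

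Ptx3, the soluble pattern recognition protein pentraxin 3, was at 0.0932, 10.17 and 1.36 CPM in bSCs, or 2, 121 and 29 reads, and at 14.6, 129.6 and 210.4 CPM in dSCs (log2 fold change -4.95, adjusted p = 0.258). Adm, the vasodilator peptide adrenomedullin, had 0, 130 and 95 reads in bSCs and 195, 1304 and 1890 reads in dSCs (log2 fold change -4.01, adjusted p = 0.351). C1qtnf2, a secreted protein with a C1q domain, had 171, 139 and 14 reads in bSCs and 221, 870 and 1418 reads in dSCs (log2 fold change -3.18, adjusted p = 0.0931). bSC replicate 2 had the highest CPM of the 3 bSC libraries for all 3 of these genes, and for 10 of the 12 leading genes. Dpep1, a dipeptidase of the cell surface, completed the 12 (log2 fold change -3.31, adjusted p = 0.149). The plot of the levels of the 12 genes shows both the gap between the groups and the higher position of bSC replicate 2.

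**Figure D1:**
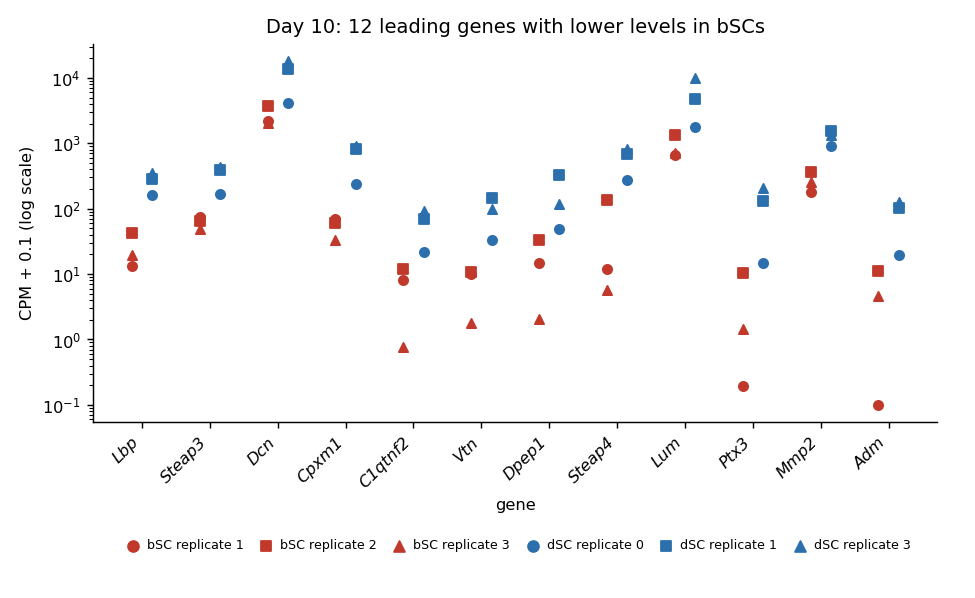
Levels of the 12 leading genes with lower levels in bSCs at day 10, as CPM with 0.1 added on a log axis, with 1 point per library (red, bSCs; blue, dSCs; shapes mark replicates). Every bSC point lies below every dSC point of the same gene, and bSC replicate 2 (red squares) is the highest bSC point for 10 of the 12.

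The bases upstream of both Steap genes and of the pattern recognition gene Ptx3 are shown. Like all 12 leading genes, they had lower levels in every bSC library. The sequences are those of RefSeq for GRCm38.p6, end at the base before the annotated start (the first listed, for Steap3) and are written 5′ to 3′ along the gene. Of the 12 leading genes, 8 had an entry in the table of promoters, and Lbp, Dcn, Lum and Mmp2 had none. Capitals mark matches, on either strand, to TTGCNNAA (C/EBP factors), TTCNNNGAA (STAT factors) or the NF-kB motif, which is GGG and TTTCC with any 2 bases between them. No match overlaps another.
Steap4, chr5:7960222-7960471, plus strand: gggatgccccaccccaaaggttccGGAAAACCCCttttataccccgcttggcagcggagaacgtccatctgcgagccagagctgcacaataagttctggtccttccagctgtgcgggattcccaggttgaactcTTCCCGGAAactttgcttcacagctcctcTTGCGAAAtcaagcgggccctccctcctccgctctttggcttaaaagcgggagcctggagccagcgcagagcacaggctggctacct
Ptx3, chr3:66219637-66219886, plus strand: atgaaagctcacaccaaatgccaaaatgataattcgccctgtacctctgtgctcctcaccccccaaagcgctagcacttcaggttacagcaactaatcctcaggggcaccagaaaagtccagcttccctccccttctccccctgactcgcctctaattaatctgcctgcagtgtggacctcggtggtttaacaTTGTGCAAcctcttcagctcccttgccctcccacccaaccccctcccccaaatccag
Steap3, chr1:120271081-120271330, minus strand: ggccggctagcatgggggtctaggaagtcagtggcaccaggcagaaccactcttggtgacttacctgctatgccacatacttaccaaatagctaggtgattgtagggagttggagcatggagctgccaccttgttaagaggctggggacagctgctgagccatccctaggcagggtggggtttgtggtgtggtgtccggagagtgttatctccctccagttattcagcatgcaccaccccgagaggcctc
In Steap4 the window held a match to each motif, the NF-kB letters beginning 226 bases, the STAT letters 116 bases and the C/EBP letters 87 bases before the start. Ptx3 held the C/EBP letters 57 bases before the start, and the Steap3 window held none of the 3 motifs, nor did the other 5 windows. The windows shown thus hold every match found and are not typical of those of the leading genes. Among 27025 promoters of the table, 9.55% held the C/EBP letters, 7.18% the STAT letters and 1.4% the NF-kB letters in these 250 bases. A match describes the letters and shows no binding.

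Markers of fibroblasts and perineurial cells formed the list with the lowest median among the functional lists and cell type lists. Of 25 listed genes 21 were tested, and 20 of these had a lower level in bSCs, with a median log2 ratio of -1.71 against 0.09 over all tested genes. None passed the adjusted threshold, 9 had an unadjusted p under 0.05 (42.9%, all lower) and 5 had libraries that did not overlap (23.8%, all lower). Besides Dcn and Lum these were Osr2, a transcription factor, Pi16, a protease inhibitor of fibroblasts, and Pdgfra, the receptor for PDGF that marks fibroblasts. Pdgfra was at 19.5, 52.1 and 82.9 CPM in bSCs and at 116, 171 and 219 CPM in dSCs, and Pi16 was at 35.3, 101.2 and 4.23 CPM in bSCs and at 335, 905 and 152 CPM in dSCs. DESeq2 called 5 of the list, and edgeR called 3 without bSC replicate 2. Without bSC replicate 1, bSC replicate 3 or dSC replicate 3, edgeR called 0.

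The summed level of the 25 fibroblast and perineurial markers was 11662 to 14188 CPM in bSCs and 25911 to 36262 CPM in dSCs. These ranges did not overlap, but the sums include Dcn and Lum, which were picked for their day 10 difference. Dcn and Lum held 18010 and 9995 of the 36262 CPM in dSC replicate 3. In bSC replicate 1 they held 2174 and 672 of the 14188 CPM. Without Dcn and Lum the sums of the groups overlapped. From 0 to 4 of the 25 were at 0 in a library. Markers of macrophages summed to 2695, 8915 and 14796 CPM in bSC replicates 1, 2 and 3 and to 5762 to 10604 CPM in dSCs, so they overlapped, and 0 of the 22 tested had an unadjusted p under 0.05. Endothelial markers summed to 2492 to 5548 CPM in bSCs and to 2087 to 5836 CPM in dSCs. Markers of mural cells, the cells around small vessels, reached 1009 to 1416 CPM in bSCs and 1417 to 2596 CPM in dSCs, which nearly touched. Markers of other blood cells summed to at most 91.2 CPM, with 13 to 18 of 21 at 0 in each library, and neuronal transcripts summed to 89.6 to 159 CPM in bSCs and 48.5 to 68.5 CPM in dSCs, with 9 to 12 of 15 at 0. In libraries of sorted populations, fewer cells of a type and less RNA of these genes per cell cannot be told apart. The part of fibroblast RNA in the lower levels of matrix genes in bSCs was not tested.

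**Figure D2:**
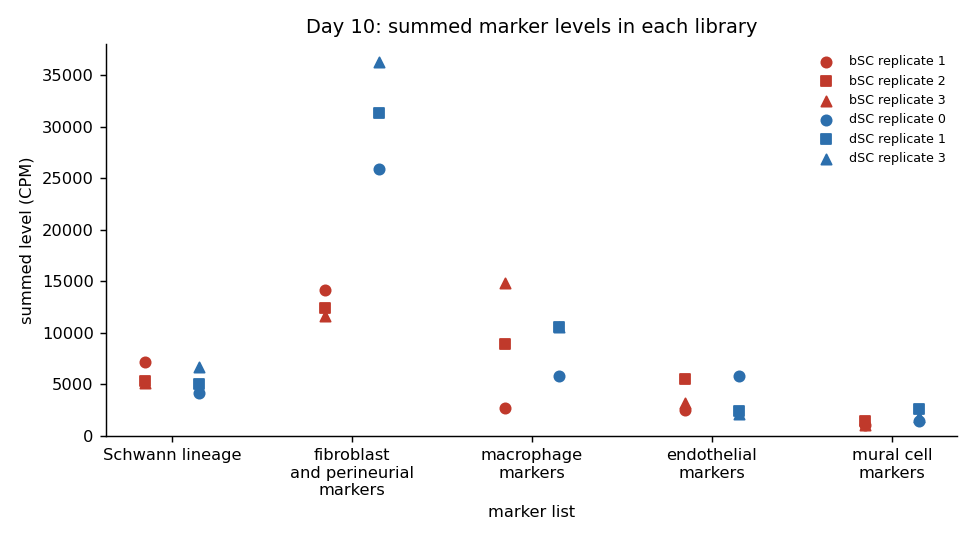
Summed level of the markers of 5 cell types in each day 10 library, in CPM (red, bSCs; blue, dSCs; shapes mark replicates). Of these lists, fibroblast and perineurial markers were 11662 to 14188 CPM in bSCs and 25911 to 36262 CPM in dSCs, whereas the SC, macrophage and endothelial sums overlapped between the groups. The fibroblast and perineurial sums include Dcn and Lum, picked for their day 10 difference, and without them the groups overlap.

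Matrix genes, among them Dcn and Lum, leaned the same way. Of 31 tested matricellular and provisional matrix genes, 23 had a lower level in bSCs, 8 had lower libraries without overlap (25.8%, against 6.61% of all genes) and the median was -0.78. Fn1, fibronectin, was at 670, 729 and 1749 CPM in bSCs and at 2155, 1775 and 2792 CPM in dSCs (log2 fold change -1.09, unadjusted p = 0.0426 and adjusted p = 1 in edgeR's test). Fbn1, the microfibril protein fibrillin 1, was at 321, 428 and 305 CPM in bSCs and at 916, 746 and 891 CPM in dSCs. The groups did not overlap for either, but bSC replicate 3 lay just below the dSC range for Fn1. Of 17 proteases and inhibitors 11 had a lower and 6 a higher level in bSCs (median -0.30), and 4 were lower without overlap (23.5%, against 6.61% of all genes). Among these 4 was Mmp19, at 54.5 to 123 CPM in bSCs and 168 to 259.9 CPM in dSCs. Of 19 collagen chains 14 had a lower level in bSCs (median -0.31) and 3 did not overlap, all lower (15.8%), while Col1a1 was at 9119, 3235 and 7007 CPM in bSCs and at 14327, 5733 and 4637 CPM in dSCs, with no separation.

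Complement is a cascade of plasma proteins that tags debris for phagocytes. Of 14 tested genes 8 had a lower and 6 a higher level in bSCs, with a median of -1.38, and 5 had an unadjusted p under 0.05, all lower (35.7%, against 2.22% of all genes). C3, the central component, had a level of 0.0466, 79.8 and 3.06 CPM in bSCs and of 159, 729.8 and 214 CPM in dSCs. Serping1, which inhibits the C1 complex, was at 569.6, 705 and 207 CPM in bSCs and at 1296, 4094 and 2194 CPM in dSCs. C3 and Serping1 did not overlap between the groups, and bSC replicate 2 was the highest bSC library for both. Without that library C3 passed (log2 fold change -7.88, edgeR adjusted p = 0.0281), and 3 genes of the list were called. Of the 21 fits in which C3 was tested, it was called in 4, and DESeq2 did not call it (adjusted p = 0.122).

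Genes for debris clearance and for signals to other cells leaned the same way. Of 29 tested genes of phagocytosis, lysosomes and lipid efflux 26 had a lower level in bSCs, with a median of -0.46, and 6 did not overlap, all lower (20.7%). Lrp1, a scavenger receptor for myelin debris, was at 47.7, 54.4 and 152 CPM in bSCs and at 174, 394 and 278 CPM in dSCs. Gpnmb, a glycoprotein of phagocytic cells, was at 26.3, 73.5 and 51.5 CPM in bSCs and at 14.6, 519 and 789 CPM in dSCs. Lrp1 did not overlap between the groups, and for Gpnmb dSC replicate 0 was the lowest of the 6. Apod, a lipid carrier abundant in injured nerve, was at 22.6, 636 and 483 CPM in bSCs and at 56.8, 23472 and 41554 CPM in dSCs, and there dSC replicate 0 lay inside the bSC range. DESeq2 called Apod, and edgeR did not.

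Of 15 tested chemokines and cytokines 4 had an unadjusted p under 0.05, all lower in bSCs (26.7%, against 2.22% of all genes), 2 were lower (13.3%, against 6.61%) and 1 was higher without overlap, and the median was -0.56. Ccl2, which attracts monocytes, was at 11.6, 31.3 and 115 CPM in bSCs and at 5.17, 199 and 709 CPM in dSCs, so that dSC replicate 0 was the lowest of the 6. Ackr3, a scavenger receptor for Cxcl12, was at 26.2, 27.8 and 27.6 CPM in bSCs and at 68, 129.6 and 154 CPM in dSCs, with no overlap.

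Growth factors for axons and SCs were mostly too low for the main test, so they were taken from a wider fit of 15519 genes, in which 853 were lower in bSCs at an unadjusted p under 0.05 (5.5%) and 169 higher (1.09%), 1240 were lower (7.99%) and 897 higher (5.78%) without overlap, and 2789 were lower (18%) and 1368 higher (8.82%) past 2.5-fold. Of 33 neurotrophic factors and receptors in it, 10 were lower at that level, 0 were higher and 0 passed the adjusted threshold. The filter of the wider fit keeps a gene for its reads in any group, so genes near 0 in bSCs entered through other groups. Bdnf was at 0, 0 and 0.0941 CPM in bSCs and at 3.08, 15 and 5.47 CPM in dSCs. Lif, a cytokine of the repair state, was at 0, 0.672 and 0 CPM in bSCs and at 3.28, 13.7 and 11.7 CPM in dSCs. Gdnf, which sustains motor neurons, was at 8.16, 0 and 0.376 CPM in bSCs and at 4.18, 9.81 and 31.2 CPM in dSCs. Bdnf and Lif did not overlap between the groups, and Gdnf did, through bSC replicate 1. Every bSC library had fewer genes with at least 1 read than every dSC library. The part of this in such low levels was not tested. Igf1, which was abundant enough for the main test, was at 473, 612 and 554 CPM in bSCs and at 1573, 899.8 and 1148 CPM in dSCs (log2 fold change -1.14, adjusted p = 0.744), with no overlap.

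Of 11 tested genes on the list of repair and immature SCs, 5 had a lower and 6 a higher level in bSCs. Sox4 was higher without overlap (9.09%, against 9.41% of all genes). Atf3 was lower at an unadjusted p under 0.05 (9.09%, against 2.22% of all genes). In the wider fit, 3 of the list's 29 genes were lower without overlap (Bdnf, Lif and Clcf1) and 1 was higher (Sox4). Over all genes of that fit these shares were 7.99% and 5.78%, so the list was near them. At an unadjusted p under 0.05, 6 of the 29 were lower, against 5.5% of all genes. Jun, the transcription factor that drives this state, was at 254, 292 and 549 CPM in bSCs and at 267, 566 and 688 CPM in dSCs. Ngfr, the p75 neurotrophin receptor, was at 414, 243 and 773 CPM in bSCs and at 552, 998 and 1467 CPM in dSCs. Shh, which injured SCs switch on, was at 5.87, 5.71 and 20.5 CPM in bSCs and at 4.48, 59.7 and 48.3 CPM in dSCs. All 3 overlapped. So did Sox2, S100b, Sox9, Tnc, Myc and Tgfb1, whose log2 fold changes were 0.30, -2.23, -1.54, 0.52, -0.0036 and -1.03. Olig1, a transcription factor of glia, had no read in any bSC library and 0, 157 and 125 reads in dSCs. Against a floor of 3 reads in the bSC libraries together, this is 136-fold lower over the group. That floor covers counting error and leaves out the spread between libraries. The log2 fold change was -9.57 ± 3.43 (SE, wider fit of edgeR, adjusted p = 0.744).

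In the wider fit 2 genes passed, both lower in bSCs (0.0129%): Lbp and Pnpla7. Pnpla7 encodes a lysophospholipase of the endoplasmic reticulum and lies on chromosome 2 (NCBIM37, chr2:24831553-24909577, plus strand). It had 1, 0 and 5 reads in bSCs and 219, 389 and 505 reads in dSCs, or 21.8, 30.8 and 33.3 CPM. The log2 fold change was -7.85 ± 1.30 (adjusted p = 0.0177). Its bSC to dSC ratio also differed from that of days 4, 6 and 8, on which the log2 ratios were -0.21, -0.48 and 0.67 (difference -7.85, adjusted p = 0.0376, edgeR). Slc41a2, a magnesium transporter, had 0, 6 and 8 reads in bSCs and 106, 337 and 196 reads in dSCs (log2 fold change -5.70, adjusted p = 0.109). Of the 15519 genes, 139 had no read in any bSC library but some in every dSC library, and 7 were the reverse. A gene without reads in 1 group entered the wider fit only through its reads in other groups. The fit holds more dSC than bSC groups, so the 139 and the 7 were not drawn evenly. Fewer genes had at least 1 read in bSCs over the whole library (11983 to 13270, against 13819 to 14180 in dSCs). The part of this in the 139 genes was not tested.

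In the other direction the data held no call in the main test. Myelin genes, which encode the proteins of the insulating sheath around axons, leaned towards higher levels in bSCs. All 13 tested genes of the myelin list had a higher level in bSCs, with a median of 1.2, and 4 did not overlap (30.8%, against 9.41% of all genes), while 1 had an unadjusted p under 0.05. Mal, a lipid raft protein of myelin, was at 509.6, 363 and 175 CPM in bSCs and at 147, 76 and 121 CPM in dSCs. Mbp, myelin basic protein, was at 597, 292 and 120.2 CPM in bSCs and at 50.4, 38.9 and 203 CPM in dSCs, so that bSC replicate 3 lay below dSC replicate 3. Pmp22 overlapped as well, at 397 to 1375 CPM in bSCs and 339 to 579.5 CPM in dSCs.

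In the wider fit the myelin genes Prx, Pmp2 and Ncmap were also higher without overlap. Prx, periaxin, was at 187, 133 and 10.9 CPM in bSCs and at 4.98, 9.02 and 6.46 CPM in dSCs (log2 fold change 4.02, adjusted p = 0.744). Pmp2, a fatty acid binding protein of myelin, was at 339, 115 and 32.6 CPM in bSCs and at 16.2, 11.6 and 0.989 CPM in dSCs. Ncmap, a protein of noncompact myelin, was at 29.2, 22.2 and 28.3 CPM in bSCs and at 0, 3.32 and 4.81 CPM in dSCs. In the list mean of log2 CPM over the 13 genes, bSC replicates 1, 2 and 3 were at 8.05, 7.59 and 6.45 and the dSC libraries at 6.37, 6.01 and 6.26, so bSC replicate 3 was barely above dSCs. Egr2, the transcription factor that switches myelin genes on, was at 182, 57.7 and 73.9 CPM in bSCs and at 65.7, 76.9 and 40.7 CPM in dSCs, with overlap.

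**Figure D3:**
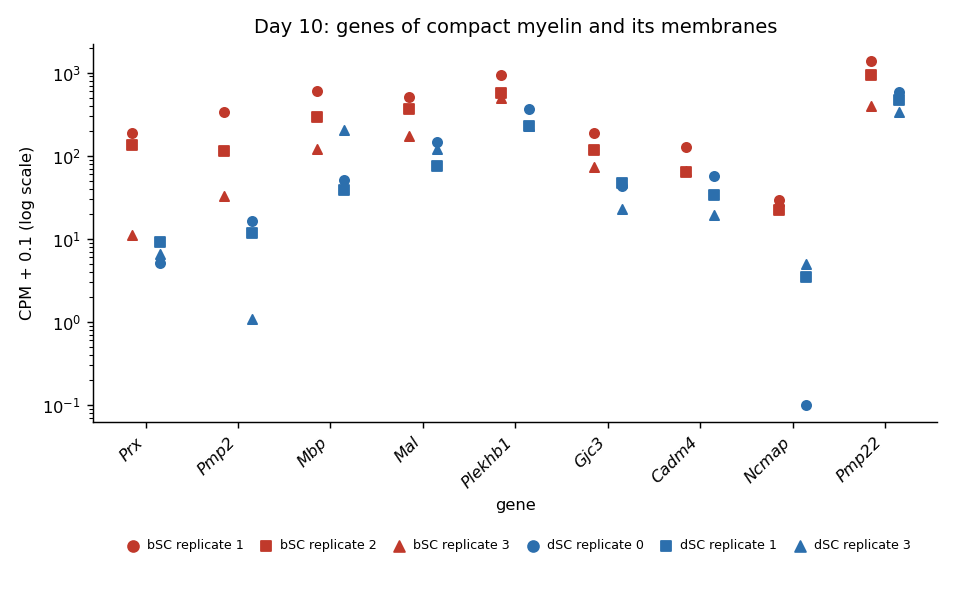
Levels of 9 myelin genes in the day 10 libraries, as CPM with 0.1 added on a log axis (red, bSCs; blue, dSCs; shapes mark replicates). Prx, Pmp2, Mal, Plekhb1, Gjc3, Cadm4 and Ncmap do not overlap between the groups, whereas Mbp and Pmp22 do, and bSC replicate 3 (red triangles) is often the lowest bSC point.

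Cholesterol is needed for myelin and membrane growth. All 15 tested genes of its synthesis had a higher level in bSCs, with a median of 0.59, and 6 did not overlap (40%). Cyp51, a sterol demethylase, was at 179, 56.1 and 106 CPM in bSCs and at 39.3, 21.5 and 27.9 CPM in dSCs (log2 fold change 1.94, adjusted p = 1). Fdps, an enzyme of the isoprenoid branch, was at 207, 84.6 and 74.4 CPM in bSCs and at 65.1, 45 and 42.5 CPM in dSCs.

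Genes of cell division leaned towards higher levels in bSCs, without a call. All 19 tested DNA replication genes had a higher level in bSCs (median 0.77) and 3 did not overlap (15.8%, against 9.41% of all genes). Of 11 mitosis genes 10 had a higher level (median 0.99) and 2 did not overlap (18.2%). The list means of log2 CPM overlapped between the groups. For DNA replication they were 6.78, 5.99 and 6.61 in bSCs and 6.33, 5.21 and 5.42 in dSCs. For mitosis they were 7.17, 6.53 and 6.29 in bSCs and 6.57, 4.97 and 5.89 in dSCs. In both lists dSC replicate 0 lay above bSC replicate 2. Pcna, the sliding clamp of DNA polymerase, was at 243, 224 and 351 CPM in bSCs and at 136, 114 and 95.9 CPM in dSCs (log2 fold change 1.24, unadjusted p = 0.0155, adjusted p = 1 in edgeR's test). Hmgb2, a chromatin protein of dividing cells with the smallest p of the 12 leading higher genes, was at 186, 163 and 228 CPM in bSCs and at 98.2, 59.7 and 66.8 CPM in dSCs (log2 fold change 1.36 ± 0.458, adjusted p = 0.738). Both were separated between the groups. Top2a, the topoisomerase of replicating cells, was at 221, 156 and 259 CPM in bSCs and at 168, 17.6 and 68.1 CPM in dSCs, where dSC replicate 0 exceeded bSC replicate 2. Mki67, a marker of cycling cells, was at 23.6, 45 and 11.3 CPM in bSCs and at 56.1, 33 and 23.1 CPM in dSCs, with no separation.

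Of 32 genes of oxidative phosphorylation 30 had a higher level in bSCs, with a median of 0.63, and 12 did not overlap (37.5%), while 0 had an unadjusted p under 0.05. Ndufb8, a subunit of complex I, was at 329.8, 311 and 288 CPM in bSCs and at 30, 188 and 190.4 CPM in dSCs. As in Ndufb8, dSC replicate 0 stood low throughout the list, with a mean log2 CPM of 5.82 against 7.01 and 7.05 in the other dSC libraries and 7.18 to 7.59 in bSCs. Without it the median was 0.46. Cytoskeletal Actb was at 14527, 13069 and 18515 CPM in bSCs and at 6135, 9347 and 7827 CPM in dSCs, with no overlap (log2 fold change 0.98, adjusted p = 1).

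Ddah1, which breaks down inhibitors of nitric oxide synthase, was at 369.7, 152 and 221 CPM in bSCs and at 73.7, 47.9 and 72.6 CPM in dSCs (log2 fold change 1.93, adjusted p = 0.744). It was called only with the block by title number, of the 21 fits in which it was tested. A further 8 of the 12 leading higher genes, Umps, 2700094K13Rik, Gmeb1, Map3k2, Rgcc, 2810417H13Rik, Dnajc9 and Dym, had log2 fold changes of 1.32 to 1.83 and an adjusted p of 1. Gnaz, a G protein alpha subunit, had 176, 75 and 454 reads in bSCs and none in dSCs. Against a floor of 3 reads over the group this is 163-fold higher, which again leaves out the spread between libraries. The log2 fold change was 10.5 ± 3.70 (SE, wider fit of edgeR, adjusted p = 0.744).

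Genes that the wound signal TGFβ raises in cultured rat SCs went both ways. Of 71 tested genes of that signature 39 had a higher and 32 a lower level in bSCs. The median was 0.05 (-0.04 with DESeq2's size factors and -0.19 without bSC replicate 3) beside 0.09 for all genes. Without overlap 6 were lower (8.45%, against 6.61% of all genes) and 3 higher (4.23%, against 9.41%). Of 11 tested genes that TGFβ lowers there, 7 had a lower and 4 a higher level in bSCs, and 0 were without overlap. Their median was -0.44, after -0.43, -0.67 and -0.34 on days 4, 6 and 8. The receptor Tgfbr2 was at 235, 229 and 229 CPM in bSCs and at 578, 292 and 302 CPM in dSCs (log2 fold change -0.76, adjusted p = 1). Of 14 genes of epithelial to mesenchymal transition and mesenchymal state 9 had a lower level in bSCs (median -0.18) and 0 were without overlap. Vim, vimentin, was at 1490, 1201 and 1665 CPM in bSCs and at 1127, 999 and 1748 CPM in dSCs. Cdh2, N-cadherin, was at 58.4, 20.1 and 55.7 CPM in bSCs and at 65.3, 11.6 and 17 CPM in dSCs. Ephb2, a receptor for ephrins, was at 14.1, 3.36 and 18.2 CPM in bSCs and at 21.4, 18.8 and 6.13 CPM in dSCs. None of these 3 genes separated the groups, and with 3 libraries each this does not show that they were equal.

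The study's clusters of genes, defined on pooled nerves of day 6 in other libraries, were examined in these nerves as well. Of 29 tested genes of cluster 3, 27 had a lower level in bSCs (median -2.26), 17 had an unadjusted p under 0.05 and 11 did not overlap (37.9%), all lower. In cluster 1 76 of 99 had a lower level (median -0.70) and in cluster 5 145 of 193 (median -0.60), with 17 (17.2%) and 43 (22.3%) lower without overlap, against 6.61% of all genes. Cluster 1 holds Lbp, the only call of the main test, which is in none of the functional and cell type lists. In clusters 2 and 6, 94 of 107 and 46 of 61 had a higher level in bSCs, with medians of 0.50 and 0.41, and 22 (20.6%) and 9 (14.8%) were higher without overlap, against 9.41% of all genes. In clusters 4 and 7, 4 and 6 genes were tested, and all of them had a lower level.

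Bridge and distal stump were also compared on days 4, 6 and 8, with 3 libraries of each per day and no library in common with day 10. Fibroblast and perineurial markers had medians of 0.22, 0.02 and 0.52 on those days against -1.71 on day 10, and 7 of the 21 differed at an unadjusted p under 0.05 in the contrast of day 10 with the mean of the earlier days, all in the negative direction. Matricellular genes went from 0.26, 0.20 and 0.29 to -0.78, with 10 of 31 at that level. The myelin list went from -0.07, 0.28 and -0.42 to 1.2, with 1 of 13. Over all genes 114 were negative and 34 positive at an unadjusted p under 0.05, and 0 of 7171 passed the adjusted threshold in edgeR (0%). DESeq2 called 1, C1qtnf2, with an interaction of -3.15 on the log2 scale (DESeq2 adjusted p = 0.0459). Without bSC replicate 2, edgeR called 29, all negative, and with the blocks by title number and animal label 21 and 13.

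**Figure D4:**
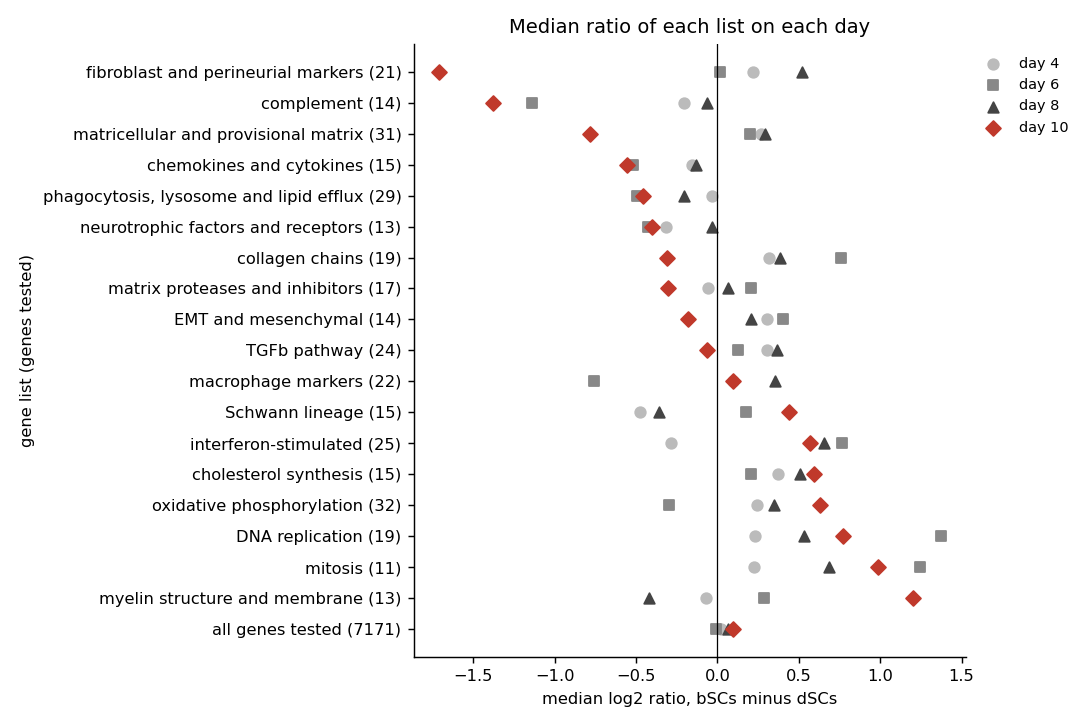
Median log2 ratio of bSCs to dSCs of the tested genes of 18 functional and cell type lists and of all genes on days 4, 6, 8 (grey symbols) and 10 (red diamonds), with the number of genes tested in brackets. On day 10, among the lists plotted, fibroblast and perineurial markers had the lowest median (-1.71) and myelin genes the highest (1.2), whereas the all-gene median was 0.09.

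The leading lower genes of day 10 were mostly lower in the bridge on the earlier days too. Of the 12, 9 had a lower mean level in bSCs on day 4, 12 on day 6 and 11 on day 8, with median log2 ratios of -0.24, -1.3 and -0.93. Without overlap, 0 were lower on day 4, 8 on day 6 and 3 on day 8. The shares of all genes on those days are not given here. The 12 were chosen on day 10 libraries alone, for a difference past 2.5-fold there. Their smaller ratios on other days therefore cannot show a change with time. Lbp in bSCs was at 144 to 166 CPM on day 4, 27.5 to 110 CPM on day 6 and 130 to 405 CPM on day 8, before the 13 to 42.9 CPM of day 10. In dSCs Lbp stayed between 141 and 440 CPM on all 4 days. Mmp2 in bSCs was at 604 to 2074 CPM on days 4 to 8 and at 177 to 362 CPM on day 10, below every earlier bSC library. Igf1 and Mrc2 were named for their small unadjusted p in the contrast of day 10 with earlier days. Neither passed the adjusted threshold of that contrast in edgeR, and the choice itself favours such a turn. Igf1 had a higher mean in bSCs on days 4, 6 and 8 (log2 ratios 0.65, 0.26 and 0.41) and a lower one on day 10. Mrc2, a receptor that takes up collagen, was at 21.9, 24.5 and 11.9 CPM in bSCs and at 87.2, 79.4 and 63.5 CPM in dSCs on day 10 (log2 fold change -1.98, adjusted p = 0.351), after log2 ratios of 0.24, 0.11 and 0.27 on days 4, 6 and 8.

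**Figure D5:**
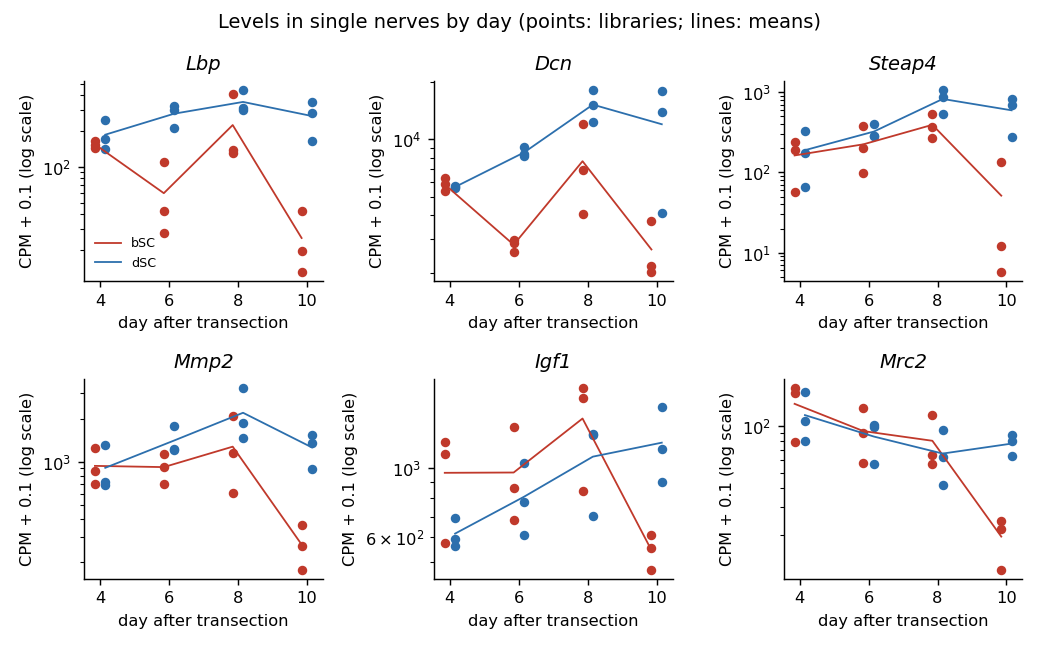
Levels of 6 genes in bSCs (red) and dSCs (blue) of single nerves by day after transection, as CPM with 0.1 added on log axes (points, libraries; lines, means of 3). The groups are apart on day 10 in all 6 genes, while on day 4 they overlap for each. For Lbp, Dcn and Mmp2 they are also apart on day 6, and for Dcn on day 8. All 6 were named for their day 10 difference or for its contrast with earlier days.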

How the data were processed

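tdTomato+ SCs of single mouse nerves were profiled by RNA-seq. The authors used TopHat2 2.0.11 and mm9 for alignment and HTSeq for counting. They deposited raw counts, 1 table per library, without normalization. HTSeq's summary rows and ERCC spike-ins were dropped. Libraries of the same group differed by far more than sampling noise (chi-square per degree of freedom of at least 116 between day 10 libraries).

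Differential expression was tested with edgeR 4.0.16 (R 4.3.3; TMM, quasi-likelihood, Benjamini-Hochberg) in 1 fit of 35 libraries in 11 groups, which share the estimate of the spread. As in the study's methods, genes needed 100 counts in 85% of the libraries, which tests 7171 of 24016 genes. A call is an adjusted p under 0.05, and 2.5-fold was counted apart. A wider fit used edgeR's own filter. Alternatives were DESeq2 1.42.0 and its size factors, other filters, fits of 6 or 24 libraries, replicate blocks and each day 10 library left out. The functions were tested on simulated data. Smart-seq2 reads carry no molecular identifiers, so reads of a gene are not independent molecules, and floors of 3 reads cover counting error only.

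Named genes were, in each direction, 12 genes, the called first and then the smallest p among those past 2.5-fold without overlap, 8 from the wider fit, up to 4 called per list, 5 by the contrast with earlier days, and a fixed set of SC genes, not all of which are given. Other list members were named after their values were seen. Some items are not reported here. The members and lists were chosen with earlier results of these data known.

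Labels tie nerves to animals, but 1 bSC library's labels conflict. Deviations from the group means correlated across genes by 0.06 and 0.04 in the day 10 pairs by animal and by -0.03 and 0.04 in those by number. At days 4 to 8, 4 of 9 pairs with a shared animal label differed in sex-linked transcripts, so blocks were used only as alternatives. Positions are those of GENCODE M1 (NCBIM37, the Ensembl name of mm9).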

Additional observations from a re-analysis of the deposited data

How the results depend on the processing

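The number of adjusted calls moved with the fit. The 1 call of the main test, which was past 2.5-fold, became 41 with DESeq2, 2 with edgeR's own filter or no filter, 0 with the 6 day 10 libraries alone (413 at an unadjusted p under 0.05) and 13 with 24 libraries. All of these calls were past 2.5-fold. Leaving out 1 day 10 library gave 0 to 42 calls, and 2 to 80 within the 24 libraries, a setting chosen after seeing the data, in which it was 25 without dSC replicate 0. Calls in the functional and cell type lists, which leave out the day 6 clusters, were 0 in the main test. They became 14 with DESeq2 and 6 with 24 libraries, and were 0 to 10 without 1 library (0 to 19 within the 24, and 8 there without dSC replicate 0). Genes whose ratio differed from days 4, 6 and 8, 0 in the main test, became 1 with DESeq2, with edgeR's own filter and with no filter, and were 0 to 29 without 1 library (0 to 37 within the 24). With the replicate block by title number the counts were 91, 23 and 21, and with the block by animal label 37, 10 and 13, in the same order. The cause of these moves was not tested.

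Of the named genes' values, those that turned direction belonged to 5 genes without a call. Myc (-0.0036 in the main test) was 0.13 and 0.053 with the other filters, 0.25 and 0.24 with the blocks by title number and animal label, and -0.38 to 0.35 without 1 library, with 0.31 and 0.093 within the 24 libraries. Col1a1 was 0.59 with the block by title number and -0.68 to 0.32 without 1 library, with 0.27 in the 24. Tnc was -0.14 to 1.33 without 1 library, with -0.18 in the 24. Sox10 was -0.022 without dSC replicate 3, and -0.053 and -0.069 in the 24, where Vim was -0.033. DESeq2's size factors moved the median of all genes by -0.094.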
